A study of Condylura cristata and Mus musculus with 12 samples.

Results

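The Hox genes were described along paralog numbers 1 to 13 in sensory ganglia of the star-nosed mole and the mouse. Members were the rows whose symbol is Hox, a cluster letter a to d and a number. The same 39 Hox genes were found among 33773 genes of the mole table and among 26125 genes of the mouse table. RNA-seq was done on trigeminal ganglia (TG), which serve the face, and on dorsal root ganglia (DRG), which serve the body. The moles were wild-caught adult males, with 3 libraries per ganglion. Mouse samples were ganglia of adult C57BL/6 females, with 2 libraries labelled TG and 2 labelled DRG. The labels name no engineered allele and no treatment. Per the methods of the study each sample came from 1 individual, except 1 mole DRG sample that combined 2 individuals. The Genomic Sample Prep kit and reads of 76 bases were used for the first replicate of each mole ganglion, and TruSeq kits for all other libraries.

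Total counts lay between 8409670 and 11140894 in 5 mole libraries and at 92323879 in mole DRG 3, and between 90548941 and 147076817 in the mouse. Rank correlations over all genes did not separate the mole ganglia fully. Mole TG 1 was closer to mole DRG 1, made with the same kit (0.922), than to the other TG libraries (0.893 and 0.898), and mole DRG 2 was as close to mole TG 2 and TG 3 (0.914 and 0.917) as to mole DRG 3 (0.912). Results that rest on these libraries are therefore given without them too. The labels do not say which mole DRG library combined 2 individuals, and p-values measure the spread between these samples.

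Hox genes encode transcription factors that bind DNA through a homeodomain, the product of a short coding stretch called the homeobox. They lie in 4 clusters, and a gene's number gives its place in its cluster and, broadly, its place of expression along the body. Low numbers reach into the hindbrain, central numbers mark neck and chest levels, and high numbers mark lumbar, sacral and tail levels and the limb ends. Neurons of the DRG arise at spinal levels, and those of the TG arise at the level of the head, in front of the usual range of Hox expression. The comparison of TG with DRG thus shows where in the series the ganglia differ.

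In the mouse genome (GRCm38, GENCODE M21) cluster a holds 11 genes at chr6:52155590-52260880 on the minus strand. Cluster b holds 10 genes at chr11:96194316-96368256, cluster c 9 genes at chr15:102921103-103036852 and cluster d 9 genes at chr2:74668310-74765142, all on the plus strand. The homeobox is the stretch that members share most, and it is shown for some central and posterior members that are described with their values further on. Each line gives 16 homeobox codons of the mouse coding strand, exonic and 5′ to 3′, and the capitals mark 6 codons for the core of the helix that contacts DNA.
Hoxa5: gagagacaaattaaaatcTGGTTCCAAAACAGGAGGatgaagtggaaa
Hoxc6: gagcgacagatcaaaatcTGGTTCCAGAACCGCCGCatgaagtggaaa
Hoxc10: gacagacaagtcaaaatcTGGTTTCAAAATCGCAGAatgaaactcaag
Hoxa13: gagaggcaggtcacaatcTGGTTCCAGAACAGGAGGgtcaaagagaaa
Identity over the mouse homeobox ranged from 67.2% to 93.9% in the 42 pairs with the same number (median 80.6%) and from 46.1% to 88.9% in the other 699 pairs (median 60.6%). A coding run of at least 36 identical bases was shared by 2 same-number pairs and 5 other pairs. The longest such run was 52 bases, so reads from these stretches could be split between members. Transcripts of Hoxc5 and Hoxc10, and those of Hoxd3 and Hoxd4, overlap in the annotation, and counts of these genes are less certain.

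In the mole, Hox expression was higher in the DRG than in the TG. The summed level of the 39 genes was 66.7, 108 and 109 CPM in mole TG 1, 2 and 3, and 377, 374 and 409 CPM in mole DRG 1, 2 and 3. CPM are counts per 1000000 counts of the library total after scaling with TMM factors. Counts were tested with the quasi-likelihood test of edgeR across all genes, and a member was called at a Benjamini-Hochberg adjusted p under 0.05. Of the 33 Hox genes that passed the filter on low counts, 19 were called higher in the DRG, against 12.9% of all genes tested, and 1 was called higher in the TG, against 10.5%. The DRG count was 8 without mole TG 2, 10 without TG 3, 9 without DRG 1 and 11 without DRG 3. In the TruSeq libraries alone it was 13, where the calls of Hoxa3, Hoxd8, Hoxc9, Hoxd9, Hoxa10 and Hoxc10 were lost. Hoxa2, Hoxc5, Hoxa11, Hoxc12, Hoxd12 and Hoxb13 did not pass the filter. The median log2 fold change (TG over DRG) of the 33 genes was -1.91, beside 0.11 for all genes tested. In the fits without mole TG 2, TG 3, DRG 1 or DRG 3 the median of the tested members was -1.94, -1.96, -2.05 and -1.89. The share of all genes called in those smaller fits is not given here. Calls lost in them are therefore not read as a trait of the members. Each DRG library lay above each TG library for 24 of the 39 genes, 23 of them tested, where 22.4% of all genes tested did so.

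**Figure D1:**
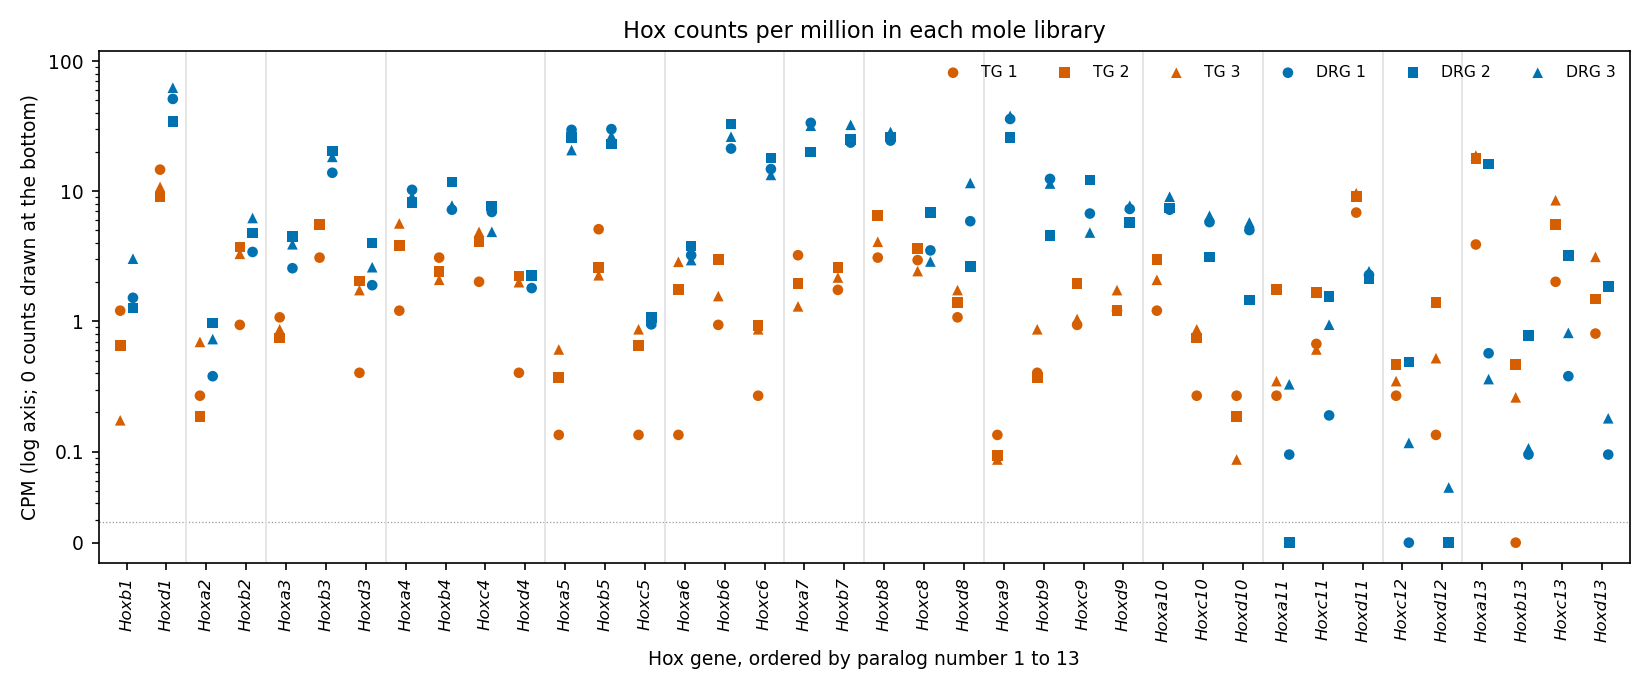
Level of 38 Hox genes in each mole library, in CPM on a log axis, with genes ordered by paralog number, TG libraries in orange and DRG libraries in blue. Blue points lie above orange points from paralogs 5 to 10 for each gene except Hoxc8, where the groups overlap, and the order is lost from paralog 11 on, where Hoxd11 lies higher in the TG.

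Among the anterior genes, paralogs 1 to 3, 3 of 7 tested mole genes were called, all higher in the DRG. Hoxd1, which is known from developing nociceptors, had 14.7, 9.03 and 10.8 CPM in the TG and 51.2, 34.5 and 62.4 CPM in the DRG. The groups did not overlap, and Hoxd1 was 4.30-fold higher in the DRG (log2 fold change -2.11 ± 0.35 SE, edgeR adjusted p = 0.0113). This call was lost without mole TG 2 (adjusted p = 0.0601, edgeR) and without mole DRG 1 (0.0533). Hoxa3, which patterns the neck and thymus, had 1.08, 0.744 and 0.870 CPM in the TG and 2.56, 4.49 and 3.92 CPM in the DRG (4.08-fold, edgeR adjusted p = 0.0340). It was the least secure of the 3, with an adjusted p of up to 0.146 in edgeR when mole TG 2, TG 3, DRG 1 or DRG 3 was left out. Its neighbour by number Hoxb3 was 3.69-fold higher in the DRG (4.75 ± 1.4 against 17.5 ± 3.3 CPM, SD, n = 3), and leaving out any of the same 4 libraries gave adjusted p between 0.0566 and 0.0694. Hoxb1, Hoxb2 and Hoxd3 did not pass, with log2 fold changes from -1.57 for Hoxb1 to -0.85 for Hoxb2.

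The central genes, paralogs 4 to 8, held 9 called genes of 14 tested, all higher in the mole DRG. Hoxa5, a gene of cervical motor neurons and the lung, had 0.134, 0.372 and 0.609 CPM in the TG against 29.6, 25.9 and 20.7 CPM in the DRG. It was close to the detection limit in the TG, with 12 counts in all 3 libraries. The difference was 68.3-fold (log2 fold change -6.01 ± 0.54, edgeR adjusted p = 0.00583). Hoxc6, which is expressed at forelimb levels of the spinal cord, had 0.269, 0.930 and 0.870 CPM in the TG and 14.8, 18.1 and 13.3 CPM in the DRG (22.3-fold, edgeR adjusted p = 0.00765). Hoxa7, a gene of the chest level of the axis, had 3.23, 1.95 and 1.31 CPM in the TG and 33.5, 20.01 and 31.9 CPM in the DRG (13.2-fold, edgeR adjusted p = 0.00770). Levels of the DRG libraries were thus above those of the TG libraries by about an order of magnitude or more in paralogs 5 to 7, except for Hoxb5, Hoxc5 and Hoxa6. Hoxb8, known for its part in spinal sensory circuits and grooming, had 3.09, 6.51 and 4.09 CPM in the TG and 24.5, 26.1 and 28.5 CPM in the DRG (5.78-fold, edgeR adjusted p = 0.00942).

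Other central members that were called in the mole were Hoxb5 (8.0-fold), Hoxb6 (14.7-fold) and Hoxb7 (12.4-fold), all higher in the DRG. Together with Hoxa5, Hoxc6, Hoxa7, Hoxb8 and Hoxa9 they were the 8 members whose call held whichever single library was left out. Hoxb4 had 3.09, 2.42 and 2.09 CPM in the TG and 7.22, 11.8 and 7.77 CPM in the DRG (3.53-fold, edgeR adjusted p = 0.0247). Its call was lost, with edgeR adjusted p from 0.0695 to 0.106, when mole TG 2, TG 3, DRG 1 or DRG 3 was left out. Hoxd8 had 5.89, 2.64 and 11.6 CPM in the DRG against 1.08, 1.40 and 1.74 CPM in the TG. Its call held only without mole DRG 2 when libraries were left out singly, and without mole DRG 3 the edgeR adjusted p was 0.159. The other paralog 4 genes had log2 fold changes of -1.36 for Hoxa4, -0.82 for Hoxc4 and -0.43 for Hoxd4, none of which passed. Hoxa6 (-1.04) and Hoxc8 (-0.54) did not pass either.

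The posterior genes of the mole split by number. All 7 genes of paralogs 9 and 10 were called higher in the DRG, and none of paralogs 11 to 13 was. Hoxa9, which is best known from blood stem cells and posterior axial patterning, had 0.134, 0.0930 and 0.0870 CPM in the TG, 1 count per library, and 35.9, 25.8 and 37.9 CPM in the DRG. It had the largest change of all members (log2 fold change -8.28 ± 0.48, edgeR adjusted p = 0.00293). Pooled over libraries the DRG level was 363 times that of the TG, with an exact 95% interval of 124 to 1759 that covers counting error only. Hoxb9 was 17.3-fold higher in the DRG, Hoxc9, a gene of thoracic motor neurons, 6.03-fold and Hoxd9 5.0-fold. Without mole TG 2 the edgeR adjusted p was 0.0520 for Hoxb9, 0.0643 for Hoxc9 and 0.0784 for Hoxd9. Hoxc9 was also lost without mole TG 3 (0.0749) or DRG 1 (0.0667), and Hoxd9 without mole TG 3 (0.0527), DRG 1 (0.0647) or DRG 3 (0.0620).

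Paralog 10 genes are known for lumbar identity of motor neurons. In the mole TG, Hoxd10 had 0.269, 0.186 and 0.0870 CPM, at 2, 2 and 1 counts, and it had 5.03, 1.46 and 5.76 CPM in the DRG. Mole DRG 2 was the lowest DRG library, yet it lay above each TG library (log2 fold change -4.52 ± 0.83, edgeR adjusted p = 0.0133). Pooled over libraries the DRG level was 31.5 times that of the TG, with an exact 95% interval of 13.4 to 97.4 for counting error. Hoxc10 was 8.18-fold and Hoxa10 3.78-fold higher in the DRG. For all 3 genes the call was lost when mole TG 2, TG 3, DRG 1 or DRG 3 was left out, with edgeR adjusted p from 0.0567 to 0.0650 for Hoxd10, from 0.0586 to 0.0763 for Hoxc10 and from 0.0758 to 0.0997 for Hoxa10.

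Hoxd11, a gene of the forearm and the sacral level, was the only member called higher in the mole TG. It had 6.86, 9.12 and 9.66 CPM in the TG and 2.28, 2.15 and 2.43 CPM in the DRG (3.74-fold, log2 fold change 1.90 ± 0.40, edgeR adjusted p = 0.0183). The groups did not overlap, as in 21.7% of all genes tested. The call held without mole TG 1 or mole DRG 2, but leaving out mole TG 2, TG 3, DRG 1 or DRG 3 gave edgeR adjusted p from 0.0714 to 0.0905. The TruSeq libraries alone gave 0.0510, and no filter on low counts 0.0551. Hoxd12 lay higher in each TG library (0.134, 1.40 and 0.522 CPM) than in the DRG (0, 0 and 0.0531 CPM), but it was not tested. These were 1, 15 and 6 counts against 0, 0 and 5, and the value of mole TG 1 is a single count. With offsets for GC content the log2 fold change of Hoxd11 was 0.04 and its call was lost (edgeR adjusted p = 0.962). Hoxd11 had a GC value, but only 75.6% of the tested mole genes did, taken from mouse transcripts. This check therefore covers part of the genes, and GC content as a cause was not tested.

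The paralog 13 genes, which act in digits, the urogenital tract and hair, did not separate the ganglia. Hoxa13 had 3.90, 17.9 and 18.8 CPM in the TG and 0.570, 16.2 and 0.361 CPM in the DRG. The DRG value near 16 was that of mole DRG 2. Hoxc13 had 2.02, 5.58 and 8.53 CPM in the TG and 0.380, 3.22 and 0.817 CPM in the DRG, and Hoxd13 had 0.807, 1.49 and 3.13 CPM against 0.0950, 1.85 and 0.180 CPM. The same DRG library was again the highest, and the groups overlapped for all 3 genes. None passed with all libraries (log2 fold changes 1.27, 1.90 and 1.44), and without mole DRG 2 all 3 were higher in the TG (edgeR adjusted p = 0.0116 for Hoxa13, 0.0312 for Hoxc13 and 0.030 for Hoxd13). Hoxc11 had a log2 fold change of 0.14 with an edgeR adjusted p of 0.917. Hoxa11, Hoxc12 and Hoxb13 stayed at or under 1.77 CPM in each mole library.

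Some posterior members carry long runs of alanine codons (GCN), and these are shown for the pair of paralog 13 genes that carry them. Each line gives the mouse coding strand, exonic and 5′ to 3′, with the alanine codons in capitals.
Hoxa13: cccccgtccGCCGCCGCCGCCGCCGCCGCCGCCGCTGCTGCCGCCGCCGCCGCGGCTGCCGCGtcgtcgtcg
Hoxd13: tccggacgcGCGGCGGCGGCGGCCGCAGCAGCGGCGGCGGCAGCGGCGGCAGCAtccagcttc
The run is 18 codons in Hoxa13 (chr6:52257694-52260880) and 15 in Hoxd13 (chr2:74668310-74671599). Hoxd8, which was called higher in the mole DRG, has a run of 14 codons, and Hoxd11, called higher in the mole TG, has 13. Coding GC content of the mouse genes ranged from 51.2% for Hoxd10 to 69.3% for Hoxa4. It was 68.8% for Hoxa13, 68.5% for Hoxd11, 68.4% for Hoxb4 and 67.4% for Hoxd9. Of these, Hoxd11 was called higher in the mole TG, and Hoxb4 and Hoxd9 in the mole DRG. Across the 33 tested genes the Spearman correlation of mole log2 fold change with coding GC content was 0.26, given as a description, since the genes share libraries. The fits with GC offsets, which cover part of the genes as said above, called 20 members for the DRG and 0 for the TG, against 19 and 1 without offsets.

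**Figure D2:**
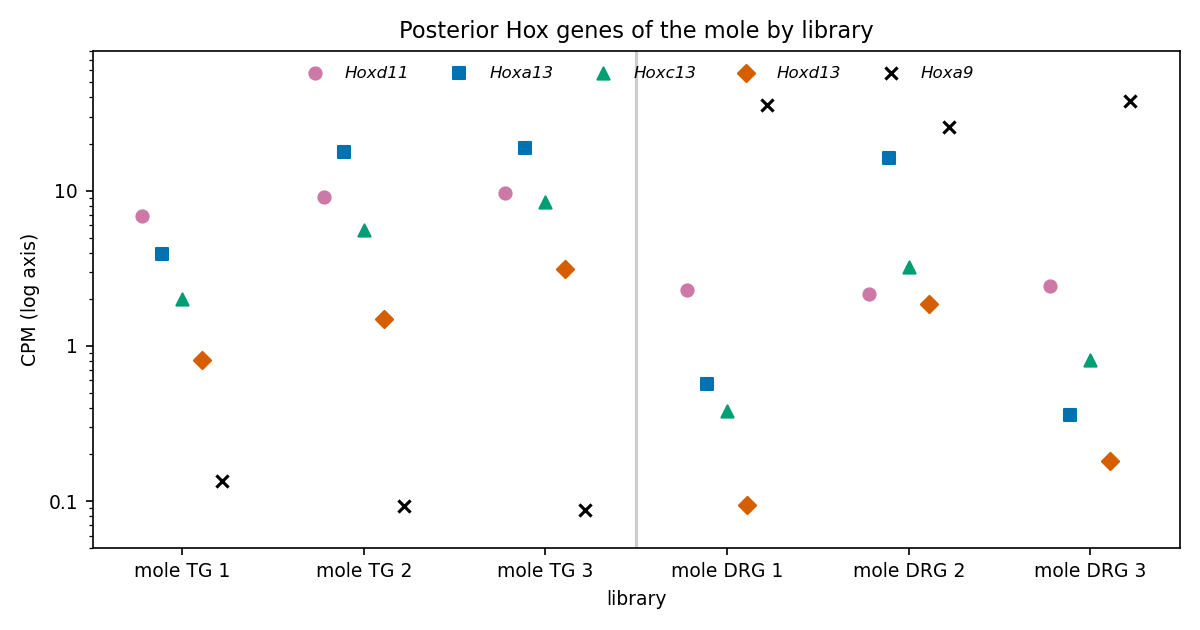
Level of Hoxd11, Hoxa13, Hoxc13, Hoxd13 and Hoxa9 in each mole library, in CPM on a log axis, with 1 marker shape per gene. Hoxa9 separates the ganglia, at 1 count per TG library against 25.8 to 37.9 CPM in the DRG, whereas Hoxa13, Hoxc13 and Hoxd13 are as high in mole DRG 2 as in some TG libraries.

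In the mouse, Hox levels were higher in the libraries labelled TG, which is the opposite of the background given above and of the mole. The summed level was 263 and 238 CPM in the libraries labelled TG, and 59.7 and 87.8 CPM in those labelled DRG. Mouse groups are therefore named by their label throughout, and the cause of this direction was not tested. Whether the TG and DRG labels of the mouse libraries were exchanged was not tested either, and an exchange would turn the sign of each mouse difference. Of 33 tested genes, 25 were called higher in the libraries labelled TG, against 1.12% of all genes tested. None was called higher in those labelled DRG, against 1.21%, and none reached an unadjusted p under 0.05 in edgeR in that direction. DESeq2 called 28 and 0. Hoxa11, Hoxc11, Hoxc12, Hoxd12, Hoxb13 and Hoxd13 did not pass the filter. The median log2 fold change (TG label over DRG label) was 4.80, beside -0.02 for all genes tested. Both libraries labelled TG lay above both labelled DRG for 32 of the 39 genes, 29 of them tested, where 24.2% of all genes tested did so. Without the first library labelled TG the median of the tested members was 4.41, and without the second it was 4.58. Each of these fits leaves a single library under the TG label. Calls lost in them are therefore not read as a trait of the members.

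**Figure D3:**
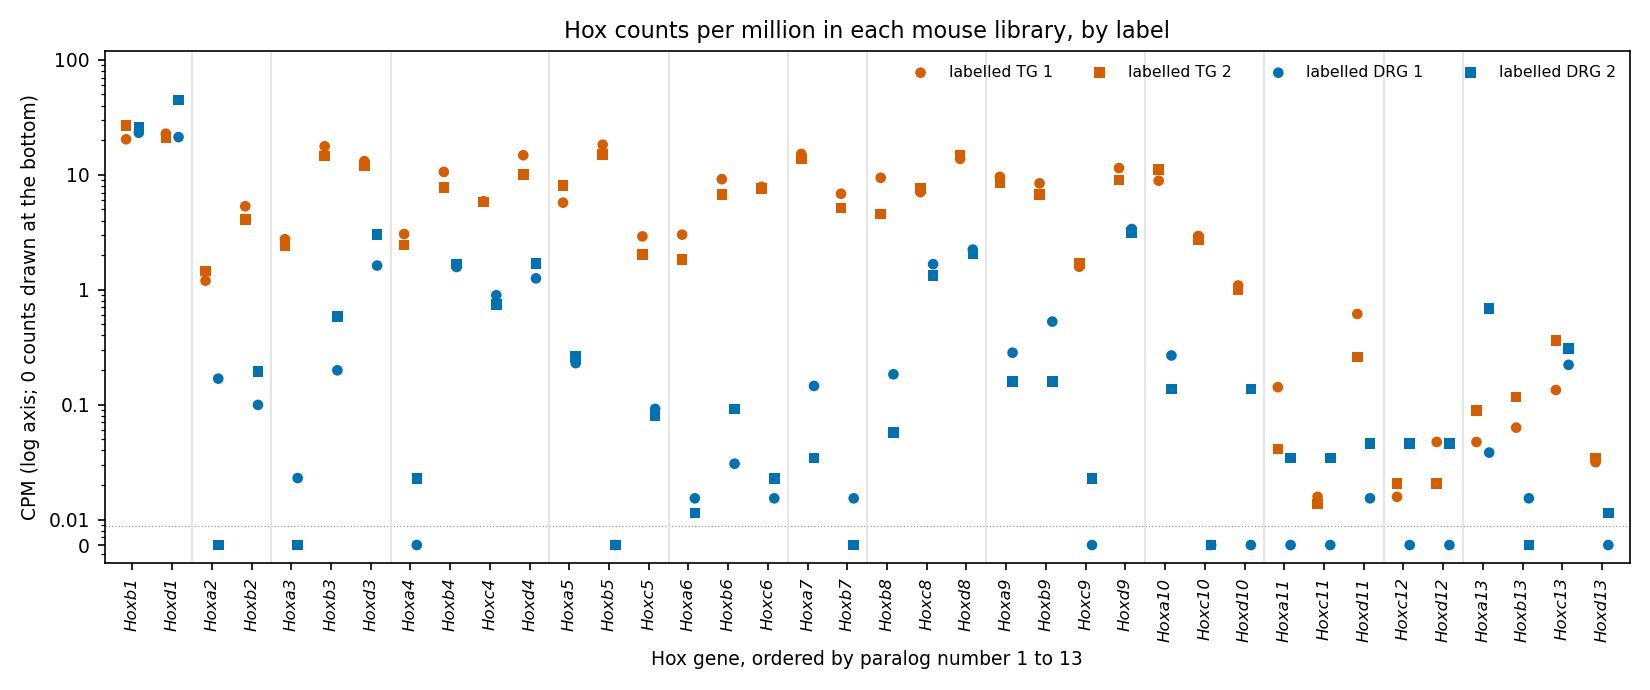
Level of 38 Hox genes in each mouse library, in CPM on a log axis, with genes ordered by paralog number and libraries named by label. Orange points (labelled TG) lie above blue points (labelled DRG) for all genes of paralogs 2 to 10, whereas the points of Hoxb1 and Hoxd1 overlap at 20.4 CPM or more.

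Paralog 1 set itself apart from the rest of the mouse series. Hoxb1, which acts in the hindbrain segment of the facial nerve, had 20.4 and 26.9 CPM in libraries labelled TG and 23.2 and 25.99 CPM in those labelled DRG. The groups overlapped, and the 95% interval of the log2 fold change was -0.54 to 0.42. Hoxd1 had 22.8 and 21.2 CPM against 21.3 and 44.7 CPM, with an interval of -1.39 to 0.23. With all libraries Hoxd1 was not called (edgeR adjusted p = 0.456). Without the first library labelled DRG its log2 fold change was -1.02, and that of Hoxa13 was -3.30. That fit leaves a single library under the DRG label, so it holds no spread between such libraries. Hoxa13 had 5 and 60 counts in the libraries labelled DRG.

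From paralog 2 to paralog 10 all but 2 mouse genes, Hoxa2 and Hoxd10, were called higher in the libraries labelled TG. Hoxb2, a hindbrain gene, had 5.32 and 4.07 CPM there and 0.0994 and 0.194 CPM in those labelled DRG (32-fold, edgeR adjusted p = 0.0125). Hoxa3 had 2.75 and 2.40 CPM against 0.0229 and 0 CPM, a pooled ratio of 187 (exact 95% interval 63.6 to 908, counting error only). Hoxa4 had 3.05 and 2.45 CPM against 0 and 0.0228 CPM, a pooled ratio of 298 (82.1 to 2463). Both genes thus had no more than 3 counts in the libraries labelled DRG.

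Several central mouse genes were at or near 0 in the libraries labelled DRG. Hoxb5, a gene of neck levels and the enteric nervous system, had 18.3 and 15.0 CPM in libraries labelled TG and 0 counts in both labelled DRG. It was at least 582-fold higher under the TG label, taking 3 counts per library as the limit of detection (edgeR adjusted p = 0.00497). Hoxc6 had 7.85 and 7.61 CPM against 0.0153 and 0.0228 CPM, 2 counts in each, a pooled ratio of 422 with an exact interval of 164 to 1549 (edgeR adjusted p = 0.00497). Hoxb7 had 6.83 and 5.14 CPM against 0.0153 and 0 CPM, a pooled ratio of 647 with an exact interval of 179 to 5348. Hoxb8 had 9.41 and 4.56 CPM against 0.184 and 0.0570 CPM (58.0-fold, edgeR adjusted p = 0.0178). The groups were separate for all 4 genes. All 15 mouse genes of paralogs 4 to 8 were called, and the smallest changes among them were those of Hoxc8 (log2 fold change 2.29), Hoxb4 (2.49) and Hoxd8 (2.73).

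Hoxc9 had 1.58 and 1.69 CPM in libraries labelled TG and 0 and 0.0228 CPM in those labelled DRG, a pooled ratio of 179 with an exact interval of 49.2 to 1482. Its edgeR adjusted p was 0.0206, and 0.0666 and 0.0806 without the first and the second library labelled TG. Hoxc10 had 2.93 and 2.73 CPM against 0 counts in both labelled DRG, at least 99.1-fold higher (edgeR adjusted p = 0.0110). Hoxa9 (40.8-fold), Hoxa10 (49.4-fold), Hoxb9 (22.1-fold) and Hoxd9 (3.14-fold) were called too. Above paralog 10 the mouse levels were low in all libraries. The highest was 0.685 CPM, for Hoxa13 in the second library labelled DRG, and the largest mean was 0.438 CPM, for Hoxd11 in the libraries labelled TG.

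Other mouse members whose call was lost in edgeR without the first library labelled TG were Hoxd3 (adjusted p = 0.141), Hoxb4 (0.129), Hoxc4 (0.0882), Hoxd4 (0.0666), Hoxc5 (0.0676), Hoxc8 (0.122), Hoxb9 (0.0530) and Hoxd9 (0.335). Without the second, those of Hoxd3 (0.125), Hoxb4 (0.0639), Hoxc4 (0.0884), Hoxc8 (0.146), Hoxd8 (0.0560) and Hoxd9 (0.185) were lost. Hoxb3, Hoxa5, Hoxb6 and Hoxa7 held with each library left out, with log2 fold changes from 4.80 for Hoxa5 to 7.21 for Hoxa7. Hoxa6, with 3 counts under the DRG label, held too, at a pooled ratio of 173 (exact 95% interval 58.9 to 841, counting error only).

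**Figure D4:**
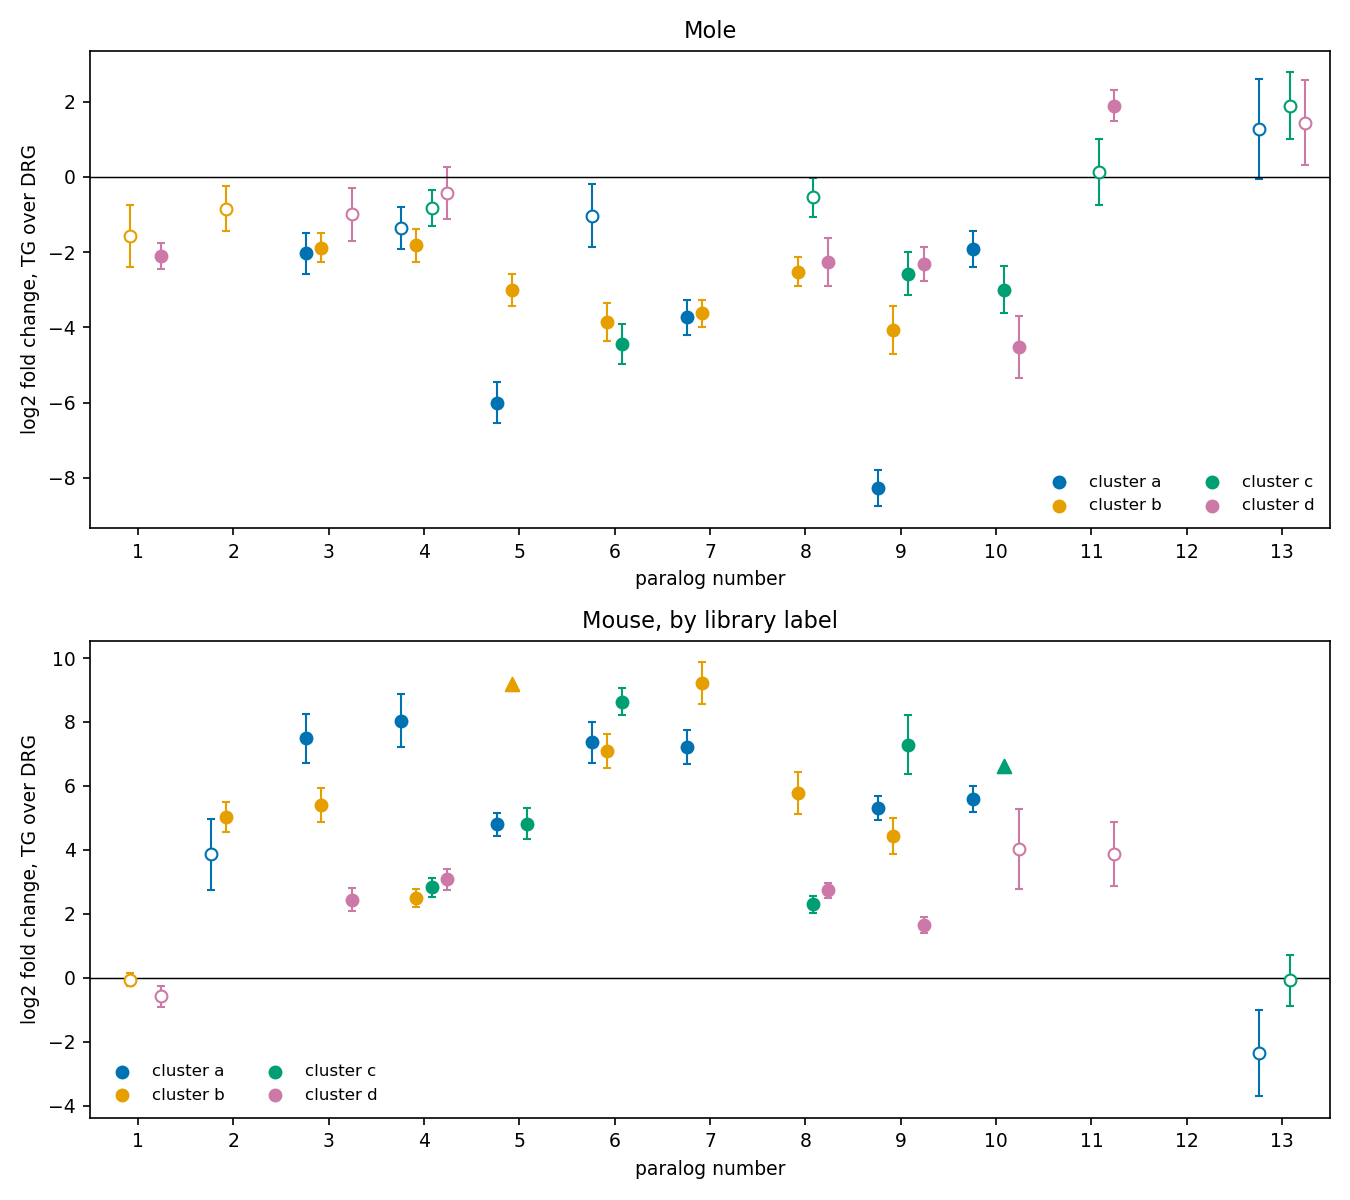
Log2 fold change (TG over DRG) of tested Hox genes against paralog number, in the mole (top) and in the mouse by library label (bottom), coloured by cluster, where bars are ± 1 SE, filled points were called, and triangles are lower bounds for the 2 mouse genes with 0 counts under the DRG label. Filled mole points of paralogs 5 to 10 lie below 0 and filled mouse points of paralogs 2 to 10 above 0.

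The 4 clusters were alike in direction within a species. In the mole, calls higher in the DRG were 5 of 9 tested genes of cluster a, 7 of 9 of cluster b, 3 of 7 of cluster c and 4 of 8 of cluster d. Mouse calls under the TG label were 7 of 10, 8 of 9, 6 of 7 and 4 of 7. Cluster d had the smallest median log2 fold change in the mouse (2.73, against 5.45 in a, 5.41 in b and 4.82 in c), and cluster c in the mole (-0.82, against -1.91, -2.52 and -1.55 in a, b and d). The difference between clusters was not tested. The Spearman correlation of log2 fold change with paralog number was 0.05 in the mole and 0.06 in the mouse, over 33 genes each that share libraries. Medians were furthest from 0 in the middle of the series, at log2 fold changes of -4.51, -3.85 and -3.68 for mole paralogs 5, 6 and 7 and of 7.36 and 8.21 for mouse paralogs 6 and 7.

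The change differed between the species for 28 of 39 genes, all lower in the mole, where 12.6% of all genes tested were. This count and its direction rest on the mouse labels as given. None was higher in the mole, against 4.39%, by edgeR, by DESeq2 or at an unadjusted p under 0.05. The test was the edgeR interaction of species and label, and its values are given in the closing section. All 8 genes of paralogs 5 to 7 differed, as did all 7 genes of paralogs 9 and 10. None of the 9 genes of paralogs 11 to 13 did, but few counts limit this. Hoxa11, Hoxc11, Hoxc12, Hoxd12, Hoxb13 and Hoxd13 had not passed the filter on low counts in the mouse alone. Hoxc11 had 4 and 3 mouse counts in total under the TG and DRG labels. The lack of a call for these genes is therefore not read as an equal change. Hoxa2 and Hoxc5, among the 28, had not passed that filter in the mole alone. In all, 17 genes were called higher in the DRG of the mole and higher under the TG label in the mouse, and 0 were called in the same direction by label. Of all genes tested, 12.9% were called higher in the mole DRG and 1.12% higher under the mouse TG label. The share of all genes called in both species was not worked out, for either pairing of directions. Across the 31 genes tested in both species the Spearman correlation of the log2 fold changes was -0.50, given as a description.

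Levels were compared between genes per kilobase of the longest mouse transcript, which stands in for the mole gene. Summed by class, mole DRG libraries held 20.3% ± 2.9 (SD, n = 3) of their Hox level per kb in paralogs 1 to 3, 61.6% ± 2.2 in paralogs 4 to 8 and 18.1% ± 0.84 in paralogs 9 to 13. Mole TG libraries held 23.5% ± 6.2, 35.8% ± 0.80 and 40.7% ± 6.7. Paralogs 9 to 13 were the largest class in mole TG 2 and 3 (44.4% and 44.8%). In mole TG 1 paralogs 4 to 8 were the largest (36.4%, against 33.0% for 9 to 13). Per kb of coding length the mole TG share of paralogs 4 to 8 was 43.2%. Mouse libraries labelled TG held 32.1% ± 2.4 (SD, n = 2), 52.7% ± 2.4 and 15.2% ± 0.080, and those labelled DRG 83.6% ± 4.7, 10.2% ± 3.2 and 6.22% ± 1.4. The central class was thus the largest in the DRG of the mole and under the mouse TG label, and the anterior class took most of the level under the mouse DRG label. In CPM per kb the anterior class was 37.4 ± 0.14 under the mouse TG label and 30.6 ± 10 under the DRG label, a difference smaller than the spread between libraries.

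**Figure D5:**
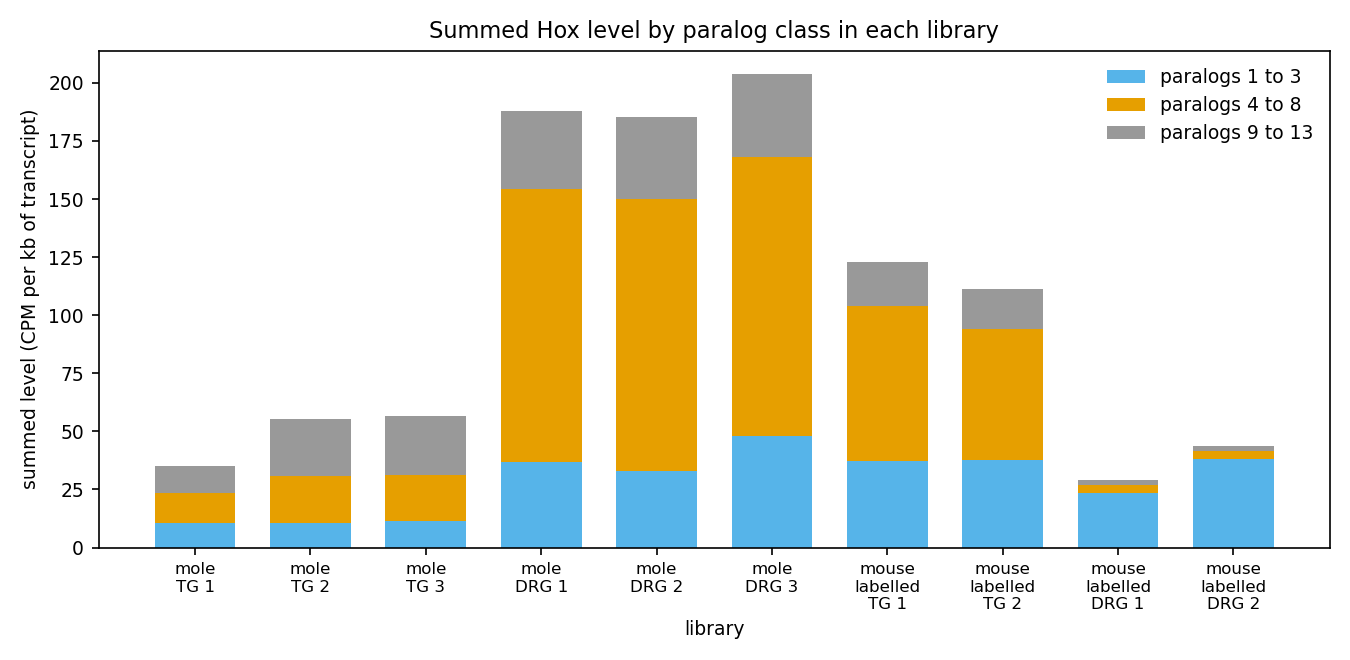
Summed Hox level in each library in CPM per kb of transcript, stacked by paralog class 1 to 3, 4 to 8 and 9 to 13. The central class is tall in mole DRG libraries (mean 118 CPM per kb) and under the mouse TG label (61.7), and small under the mouse DRG label (3.54).

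By single genes, Hoxd1 had the highest level per kb in mole DRG (26.5 ± 7.6 CPM per kb), under the mouse TG label (11.8 ± 0.59) and under the mouse DRG label (17.7 ± 8.9). Under the mouse TG label Hoxb1 (11.3 ± 2.2) did not differ from it beyond their spread. In mole DRG it was followed by Hoxb7 (20.9 ± 3.6) and Hoxa7 (14.2 ± 3.7), and the first 2 did not differ beyond their spread. In mouse libraries labelled DRG, Hoxb1 (11.8 ± 0.95) was second and the third, Hoxd9, had 1.52 ± 0.082. The mole TG had Hoxd11 first (7.69 ± 1.3), then Hoxd1 (6.17 ± 1.5) and Hoxa13 (5.65 ± 3.5), which did not differ beyond their spread.

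The other genes of the Hox system are read beside the shares of all genes called, 12.9% (DRG) and 10.5% (TG) in the mole and 1.21% and 1.12% by label in the mouse. Of 9 genes for Pbx, Meis and Pknox proteins, which bind DNA together with Hox proteins, none was called in the mole by edgeR or DESeq2, with 4 at an unadjusted p under 0.05. In the mouse 1 was, Meis2, which was higher under the DRG label (26.8 ± 1.5 against 81.3 ± 6.9 CPM under TG and DRG, edgeR adjusted p = 0.0127). Their median log2 fold change was 0.58 in the mole and -0.27 in the mouse. Of 17 genes of the Polycomb and trithorax groups, which keep Hox clusters silent or active, 3 were called in the mole. Men1 (log2 fold change 1.14) was among the 2 higher in the TG, and Ezh1 (-0.95) was higher in the DRG. None was called in the mouse by edgeR, with 5 at an unadjusted p under 0.05 and 2 called by DESeq2, all higher under the DRG label. Mll of that list was not analysed here.

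Retinoic acid and caudal (Cdx) factors set Hox expression in the embryo. Of 9 tested genes in the mole, Rarg (82.0 ± 10 against 20.7 ± 1.1 CPM) and Rara (41.1 ± 9.0 against 19.5 ± 2.0 CPM), both retinoic acid receptors, were higher in the TG. In the mouse Egr2, a hindbrain and Schwann cell gene, was the single edgeR call of 10, higher under the DRG label (80.5 ± 13 against 23.3 ± 1.5 CPM). DESeq2 called 4 of them higher under that label, and 4 had an unadjusted edgeR p under 0.05 in that direction. The caudal genes Cdx2 and Cdx4 did not pass the filter in either species, and Cdx1 did so in the mole only, where it was not called.

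Genes at the cluster edges did not move as a block. Of 8 tested in the mole, Skap2, beside the anterior end of cluster a, was higher in the DRG (0.886 ± 0.22 against 14.4 ± 6.3 CPM, edgeR adjusted p = 0.0077). Mtx2, beside the anterior end of cluster d, was also higher in the DRG (log2 fold change -1.85), as was Lnp (-2.64), beyond its posterior end. Evx2, next to Hoxd13 at that end, was higher in the TG (6.03 ± 2.4 against 1.13 ± 0.50 CPM, edgeR adjusted p = 0.0254), and so was Smug1 near cluster c (1.19). None of the 6 tested in the mouse was called by edgeR, with 2 at an unadjusted p under 0.05 and 1 called by DESeq2, higher under the TG label. Of 11 tested genes of head and midbrain patterning, Gbx2 was called in the mole, higher in the TG (2.34 ± 1.1 against 0.247 ± 0.21 CPM), and of 5 limb-level genes Pitx1, a gene of the hindlimb, jaw and pituitary, was higher in the TG (25.9 ± 3.6 against 2.32 ± 1.9 CPM). DESeq2 called 4 of the head and midbrain genes and 2 of the limb-level genes in the mole, all higher in the TG. Neither list held a call in the mouse by edgeR or DESeq2, and 1 gene of each had an unadjusted p under 0.05.

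Markers of the tissue and of other cells gave the following levels beside the Hox genes, and their part in the Hox differences was not tested. In bulk samples fewer cells of a type and less RNA per cell cannot be told apart. The 12 genes of sensory neurons were present in all libraries, with a summed level of 8833 to 9554 CPM in the mole TG and 10081 to 12403 CPM in the DRG, with 4 higher in the DRG (Calca, Ret, Snap25 and Ntrk2) and none higher in the TG. In the mouse they summed to 10941 to 11239 CPM under the TG label and 8927 to 11199 CPM under the DRG label, with 0 called by edgeR, 3 at an unadjusted p under 0.05 and 1 by DESeq2.

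Of the skeletal muscle markers, 9 of 12 were higher in the mole TG (led by Tnni2, Tnnc2, Casq1 and Mylpf, with a sum of 1658 to 3772 against 516 to 1090 CPM) and under the mouse TG label (7 of 12, led by Myh4, Tnnc2, Tnnt3 and Myh1, 49.8 to 65.1 against 9.48 to 10.4 CPM). Muscle markers and Hox genes thus lay on the same side in the mouse and on opposite sides in the mole. Myelin genes were higher in the mole TG (7 of 10, led by Mag, Mbp, Pllp and Prx, 9717 to 11264 against 1802 to 3559 CPM) and under the mouse DRG label (8 of 10, led by Mag, Pllp and Mbp, 10604 to 13871 against 4252 to 4300 CPM). Central nervous system markers were higher in the mole TG for 6 of 13 (Opalin, Gfap, Olig1 and Olig2 among them) and in the DRG for 1 (Aqp4), with a sum of 735 to 1085 against 218 to 318 CPM. In the mouse 3 of 12 tested were higher under the DRG label (Gfap, Mog and Olig1), with a sum of 460 to 468 against 197 to 211 CPM. The libraries with lower Hox levels thus had the higher myelin and central nervous system sums in both species. Slc17a7 was the largest single part of the latter sum in each group. Its mean ± SD was 515 ± 59 CPM in the mole TG and 221 ± 65 CPM in the DRG. In the mouse, where it was not called, it was 159 ± 1.4 and 249 ± 40 CPM under the TG and DRG labels. The sum is therefore not read as an amount of central nervous system tissue. Gfap, Mog and Olig1 were called on the same side as the sums in both species.

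Of 12 markers of marrow, bone and cartilage, 4 were higher in the mole DRG (Camp, S100a9, S100a8 and Elane). Their sum was 1259 CPM in mole DRG 1 and 1040 in mole DRG 3, but 207 in mole DRG 2, below the 297 to 376 CPM of the TG libraries. Surface epithelium markers summed to 1532, 54.99 and 45.5 CPM in mole TG 1, 2 and 3 and to 12.7 to 31.6 CPM in the DRG, with 5 of 11 called higher in the TG (Sbsn, Krt76, Krt5 and Krt6a among them). Of 10 fibroblast and meninges markers 1 was called in the mole (Lum, higher in the DRG, 532 to 888 against 676 to 1220 CPM in sum) and 1 in the mouse (Col3a1, higher under the TG label, 856 to 881 against 827 to 903 CPM). In the mouse the marrow list summed to 18.6 to 20.3 against 23.9 to 25.7 CPM, with S100a9 called, at 0 counts under the DRG label, and epithelium to 9.03 to 9.64 against 9.18 to 10.5 CPM, with 0 called by edgeR or DESeq2 and 0 at an unadjusted p under 0.05. None of these lists was at 0 throughout for any marker.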

How the data were processed

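The series holds 12 RNA-seq samples of trigeminal (TG) and dorsal root (DRG) ganglia from star-nosed moles and mice. The deposited values are read counts per gene, as whole numbers with no normalization. The authors aligned mole reads with Stampy to human, dog and mouse transcripts and summed counts over homologs, and mouse reads were aligned to mouse transcripts, per the methods of the study. Hox counts in the mole therefore rest on the sequence of other species. Lists of the authors' own calls were not used, and 2 mouse samples were not analysed here.

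Groups were the labelled ganglion of each species. Deposited counts were tested with edgeR 4.0.16 in R 4.3.3, using filterByExpr (minimum count 10), TMM factors, quasi-likelihood tests of TG over DRG in each species, and Benjamini-Hochberg adjustment over all genes with a threshold of 0.05. The change in the mole minus that in the mouse was tested in 1 fit of 4 groups over the symbols in both tables. Standard errors were the absolute log2 fold change over the square root of F. The script was tested on simulated data. The members, gene lists and tests were chosen with earlier results of these data known.

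Total counts ranged from 8409670 to 92323879 in mole libraries and from 90548941 to 147076817 in mouse libraries, so 3 counts equal between 0.0318 and 0.403 CPM in the mole. Levels per kb used the longest GENCODE M21 mouse transcript for both species. Alternatives were DESeq2 1.42.0, RLE factors, no filter, a replicate block, thinning to the smallest library, each library left out, TruSeq libraries alone, 2 libraries left out together, GC offsets and coding length. By the rule for named genes, Hox genes were named, each library's value was given for the called member of each paralog number with the largest change and for calls against the majority, and up to 4 passing members were named per list. Some members' own values, list genes and sequences are not reported here.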

Additional observations from a re-analysis of the deposited data

Results flagged for a closer look

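For 28 Hox genes the change (TG over DRG) differed between mole and mouse by label, in the edgeR interaction of species and label. Values are the mole change minus the mouse change as estimated in the 1 fit of 4 groups, on a log2 scale. A negative value means that the gene was relatively lower in the mole TG. They are not the exact difference of the log2 fold changes fitted in each species alone. For Hoxd1 those were -2.11 in the mole and -0.58 in the mouse, and the value here is -2.0. With RLE in place of TMM factors the Hoxd1 value was -1.52.

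Among anterior genes the difference was -2.0 for Hoxd1, -5.16 for Hoxa2, -6.33 for Hoxb2, -9.90 for Hoxa3, -7.73 for Hoxb3 and -3.90 for Hoxd3. Central genes gave -9.70 for Hoxa4, -4.77 for Hoxb4, -4.11 for Hoxc4, -3.98 for Hoxd4, -11.27 for Hoxa5, -16.41 for Hoxb5 and -6.10 for Hoxc5. Further along they gave -8.76 for Hoxa6, -11.37 for Hoxb6, -13.44 for Hoxc6, -11.43 for Hoxa7, -13.17 for Hoxb7, -8.77 for Hoxb8, -3.28 for Hoxc8 and -5.48 for Hoxd8. Posterior genes gave -14.12 for Hoxa9, -9.0 for Hoxb9, -10.15 for Hoxc9, -4.44 for Hoxd9, -7.97 for Hoxa10, -13.86 for Hoxc10 and -9.04 for Hoxd10. The values of Hoxb5 and Hoxc10 rest on 0 counts under the mouse DRG label and depend on the prior count of the fit. The median over the 39 tested members was -5.48, also with those 2 genes at their lower bound, beside -0.16 for all genes tested.

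The call held in each of the 15 alternative fits for 23 of the 28 genes. It was lost in at least 1 fit without a single library for Hoxd1, Hoxa2, Hoxd3, Hoxd4 and Hoxc8, for the last 3 only without a mouse library. Without mole DRG 3 the edgeR adjusted p was 0.0961 for Hoxd1 and 0.0994 for Hoxa2. With all libraries kept, Hoxd1 was also lost with RLE factors (edgeR adjusted p = 0.0704). Hoxa2 was also lost with RLE factors (0.0677), a replicate block (0.0512) and thinned counts (0.0521). Species differed in sex, in library kit for 2 mole libraries, in depth and in the transcripts to which reads were aligned, and these cannot be told apart from species here. An exchange of the mouse labels, which would turn the sign of each mouse term, was not tested.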

How the results depend on the processing

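Counts of called members that moved by over 1.5 times were as follows. The count higher in the mole TG, 1 gene (Hoxd11), was 0 with no filter, 0 with TruSeq libraries alone, 0 with GC offsets, 0 with GC offsets and replicate block and 4 with mole TG 1 and mole DRG 2 both left out. With 1 library left out, the mole counts ranged from 8 to 19 (higher in DRG) and from 0 to 4 (higher in TG). Mouse counts ranged from 16 to 28 (TG label) and from 0 to 2 (DRG label), and the interaction gave 24 to 30 lower and 0 to 1 higher in the mole. The mole DRG count was 8 without TG 2, 10 without TG 3, 9 without DRG 1 and 11 without DRG 3. The median log2 fold change of the tested members lay between -2.05 and -1.89 in those fits. A mouse library left alone in its group is assumed to vary like the others. Per kb of coding length in place of transcript length, the class shares were 43.2% for paralogs 4 to 8 in mole TG, 16.2% for 1 to 3 and 20.5% for 9 to 13 in mole DRG, 27.4%, 56.6% and 15.9% under the mouse TG label, and 13.9% for 4 to 8 under the mouse DRG label.

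No called member reversed. Members that were not called changed sign in these fits, given as log2 values. In the mole, Hoxc11 (0.14) was -0.013 with no filter, -0.17 in TruSeq libraries alone, -0.50 with GC offsets and -0.41 with GC offsets and replicate block. Hoxd4 (-0.43) was 0.0095 without mole TG 1 and DRG 2. With 1 library left out, Hoxc11 ranged from -0.49 to 0.62. The mouse ranges were -0.26 to 0.13 for Hoxb1, -1.02 to 0.048 for Hoxd1, -3.30 to 0.82 for Hoxa13 and -0.96 to 0.46 for Hoxc13. For the interaction Hoxc11 (-0.27) was 0.20 with DESeq2, 0.19 with RLE factors and 0.14 with thinned counts. Interaction ranges with 1 library left out were -3.17 to 0.82 for Hoxc11, -2.90 to 0.67 for Hoxd13, -3.64 to 0.45 for Hoxa11 and -0.14 to 4.24 for Hoxd12. The single call higher in the mole was Hoxa13, without mole DRG 2 (6.78, edgeR adjusted p = 0.0120). The cause was not tested. RLE factors moved the median interaction of all genes from -0.16 to 0.31.

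Same-numbered libraries were checked for pairing by the correlation of their deviations from group means, which was 0.24, 0.42 and -0.11 in the mole and -0.37 in the mouse, so numbers were not taken as pairs. Mole TG 3 correlated best with mole DRG 2 (0.17). With a replicate block, 17 members were called for the mole DRG, without Hoxa3 (edgeR adjusted p = 0.0648) and Hoxd8 (0.0549), and 1 for the TG, 26 were higher under the mouse TG label and 27 differed in the interaction. With the mouse numbers crossed, an alternative chosen after seeing the data, 29 were higher under the TG label and 0 under the DRG label.

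DESeq2 gave no adjusted p for Hoxa13 in the mole and for Hoxc12, Hoxd12, Hoxa13 and Hoxb13 in the interaction. Depth limits the posterior genes: 3 counts were 0.0206 to 0.0342 CPM in mouse libraries, and levels near these were not told apart from 0.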

Other observations

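Antisense rows of the Hox series were low. Hoxa11-as1 in the mole table had 3, 2 and 6 counts in mole TG 1, 2 and 3 and 1, 1 and 22 counts in mole DRG 1, 2 and 3, the last in a library of 92323879 counts. Hoxa11as had 1 count in the mole in all, and 5 and 10 counts in mouse libraries labelled TG against 0 and 3 in those labelled DRG. Its sense partner Hoxa11 had 24 and 3 counts in total under those labels, and strand was not stated for the counting, so reads of the pair cannot be told apart.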
